A study of Homo sapiens with 6 samples.

Results

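Mitochondrial ribosomal protein genes were followed in HepG2, a line of human hepatocellular carcinoma cells, with and without GDF11 (growth differentiation factor 11, a ligand of the TGF-beta family). The members are the protein-coding genes whose symbol is MRPL or MRPS followed by digits, with or without a further letter. They numbered 78 of the 60240 genes of the deposited table, and another 86 rows with such symbols were left out as pseudogenes, antisense RNAs or divergent transcripts. The control group was untreated HepG2 cells and the other group was HepG2 cells given recombinant GDF11 at 100 ng/ml for 24 h, with 3 biological replicates in each per the labels. All 6 libraries come from this 1 cell line. Values stand on the deposited variance-stabilised log2 scale, on which 5.52 is the value of a gene without reads. A difference always means GDF11 minus control on this scale, and its SE is that of limma. In such bulk RNA, fewer cells with a transcript and less of it per cell cannot be told apart.

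Mitochondria keep their own ribosome, the mitoribosome, which translates the few messenger RNAs of mitochondrial DNA into core subunits of the respiratory chain. Its ribosomal RNAs come from mitochondrial DNA, whereas its proteins are encoded in the nucleus, made in the cytosol and imported. The large subunit forms the peptide bonds and the small subunit reads the messenger RNA. Many of the proteins descend from bacterial ribosomal proteins and others were added in the mitochondrial lineage. In the current nomenclature a prefix u or b marks a protein with a bacterial counterpart and a prefix m marks a protein named as mitochondrial. Liver cells are rich in mitochondria.

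By these names as RefSeq gives them, 51 members belong to the large subunit, 30 with a u or b name and 21 with an m name. The small subunit holds 26, of which 16 are counted with the u or b names and 10 have an m name. MRPS24 and MRPS28 have no such name in the RefSeq table used and were placed among the 16 from textbook knowledge as relatives of bacterial proteins. MRPS30 (mL65) and MRPS18A (mL66) are counted with the large subunit despite their symbols. MRPS36 is named KGD4 in RefSeq, and its protein is now known as a part of the alpha-ketoglutarate dehydrogenase complex, so it was placed in neither subunit.

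Since many members had lower values together, the stretches just before their start sites are shown for 5 of them. RefSeq's table of promoters, on the GRCh38.p14 build, held 70 of the 78 members, with 86 windows of 250 bases before to 50 after a start. Short motifs known from housekeeping and mitochondrial genes were looked for on both strands. One was CCGGAAG, a core that ETS family factors such as GABP bind. This ETS core stood in 38.4% of the members' windows and in 10.3% of all 35116 windows, or 16.1% of the windows of protein-coding genes tested here. The core of YY1 sites that was searched is ATGGCGG. It stood in 29.1% of the members' windows, 5.55% of all and 8.83% of those of tested protein-coding genes. For NRF1 sites the core GCATGCG was taken, and it was in 8.14%, 3.91% and 5.38% of the same windows. A core of SP1 sites, GGGCGG, was in 60.5%, 45.0% and 64.2% of them. A match of letters is not a site in use. Of the members called lower that had a window, 11 had the ETS core and 15 did not. The median difference between GDF11 and control was -0.40 in the 30 members with the ETS core and -0.53 in the 40 without, and whether these differ was not tested. The 120 bases before the start of MRPS26 (chr20:3045932-3046051, plus strand), MRPS18B (chr6:30617720-30617839, plus strand), MRPL48 (chr11:73787754-73787873, plus strand) and MRPS23 (chr17:57850045-57850164, minus strand) follow, together with the 180 bases between the start sites of MRPS12 and SARS2 (chr19:38930764-38930943, plus strand). They are written 5′ to 3′ on the gene's strand, with matches to the ETS, YY1 and NRF1 cores or their reverse complements in capitals. MRPS26, MRPS18B and MRPL48 were picked as the 3 called members of lowest p with such a match in these 120 bases. Other called members with a lower p than MRPL48 were passed over. MRPS27, MRPS2, MRPS25 and MRPL12 had none of these cores in their windows. MRPL16 (ETS) and MRPL46 (YY1) held a core in a window but not in the 120 bases searched. MRPL23 had no window.
MRPS26: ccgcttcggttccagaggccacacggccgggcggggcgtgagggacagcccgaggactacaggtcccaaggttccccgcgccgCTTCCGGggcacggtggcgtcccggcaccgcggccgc
MRPS18B: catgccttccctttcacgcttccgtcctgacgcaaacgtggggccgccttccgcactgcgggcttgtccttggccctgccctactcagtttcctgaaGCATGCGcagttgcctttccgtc
MRPL48: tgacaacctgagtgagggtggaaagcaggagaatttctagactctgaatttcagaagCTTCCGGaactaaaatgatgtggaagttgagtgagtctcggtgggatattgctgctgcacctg
MRPS23: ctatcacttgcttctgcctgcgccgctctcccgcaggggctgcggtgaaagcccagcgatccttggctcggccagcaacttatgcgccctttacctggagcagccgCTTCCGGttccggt
MRPS12 and SARS2: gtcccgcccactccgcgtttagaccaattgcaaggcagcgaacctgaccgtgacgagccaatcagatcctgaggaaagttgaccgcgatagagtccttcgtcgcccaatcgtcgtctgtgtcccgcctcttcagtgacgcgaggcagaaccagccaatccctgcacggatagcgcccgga
The capitals show the reverse complement of the ETS core in MRPS26, MRPL48 and MRPS23, and the NRF1 core in MRPS18B. MRPS26 and MRPL48, picked partly because they were called lower, fell with GDF11, and MRPS23 did not. Whether the letters go with the response was not tested. The stretch shared by MRPS12 and SARS2 holds none of the ETS, YY1 and NRF1 cores. A promoter window of MRPS12 does hold the ETS core, outside the bases shown.

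The libraries had an estimated 47900000 to 53400000 reads. The labels give RNA integrity numbers of 9.8, 9.9 and 9.6 for the controls, in replicate order, and of 9.6, 9.5 and 9.4 for the GDF11 libraries. Among the controls, replicate 3 was the least like the others, with Pearson correlations across genes of 0.984 and 0.982 to them against 0.992 between those, so the numbers called below are also given without it, for all members, for each class and for each list of other mitochondrial genes. All 9 hepatocyte markers looked for were detected in all libraries. They held 2.94% to 3.45% of reads in the controls and 2.75% to 2.99% with GDF11, and 4 of the 9 were called lower, among them ALB. Of markers of other cells, PTPRC, CD3E, TEK and CLDN5 were at the lowest value in all 6 libraries. The tested ones were 2 of 7 for fibroblasts, with PDGFRB called higher, 2 of 5 for endothelium, with VWF called lower, and 4 of 6 for leukocytes, with LYZ called lower. Their summed reads in controls and with GDF11 were 758 to 1486 and 1927 to 2559 (fibroblast), 51.3 to 97.3 and 13.2 to 32.9 (endothelium) and 68881 to 80419 and 32546 to 34216 (leukocyte), and the part of these changes in the results below was not tested.

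All 78 members were expressed well enough to be tested, and most had lower values with GDF11. By limma, 28 of 78 fell, 0 rose and 50 were not called at a Benjamini-Hochberg adjusted p under 0.05. Across all 18723 tested genes 10.8% were called lower and 11.7% higher. At an unadjusted p under 0.05, 50 members were lower and 1 (MRPS23) higher. Shares of all tested genes at this unadjusted threshold were not counted, here or below, and the 10.8% and 11.7% are of adjusted calls. The difference was below 0 in 76 of 78 members, against 49.4% of all tested genes. Its median was -0.53, against 0.01 over all tested genes, and it ran from -1.17 in MRPL11 to 0.60 in MRPS23. Changes were moderate in size: 27 members were called lower by at least 0.5 (background 9.86%) and 5 by at least 1 (background 2.96%). All 3 GDF11 values lay below all 3 control values in 43 members (background 19.6%), above them in 1 (background 20.9%), and overlapped them in 34. The count of called members depended on single libraries: leaving out control replicate 1, 2 or 3 gave 4, 7 and 58 that fell, and leaving out GDF11 replicate 1, 2 or 3 gave 6, 13 and 3. The share of all tested genes called lower in these 6 fits was, in the same order, 5.84%, 6.35%, 21.3%, 5.35%, 6.11% and 5.1%.

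**Figure D1:**
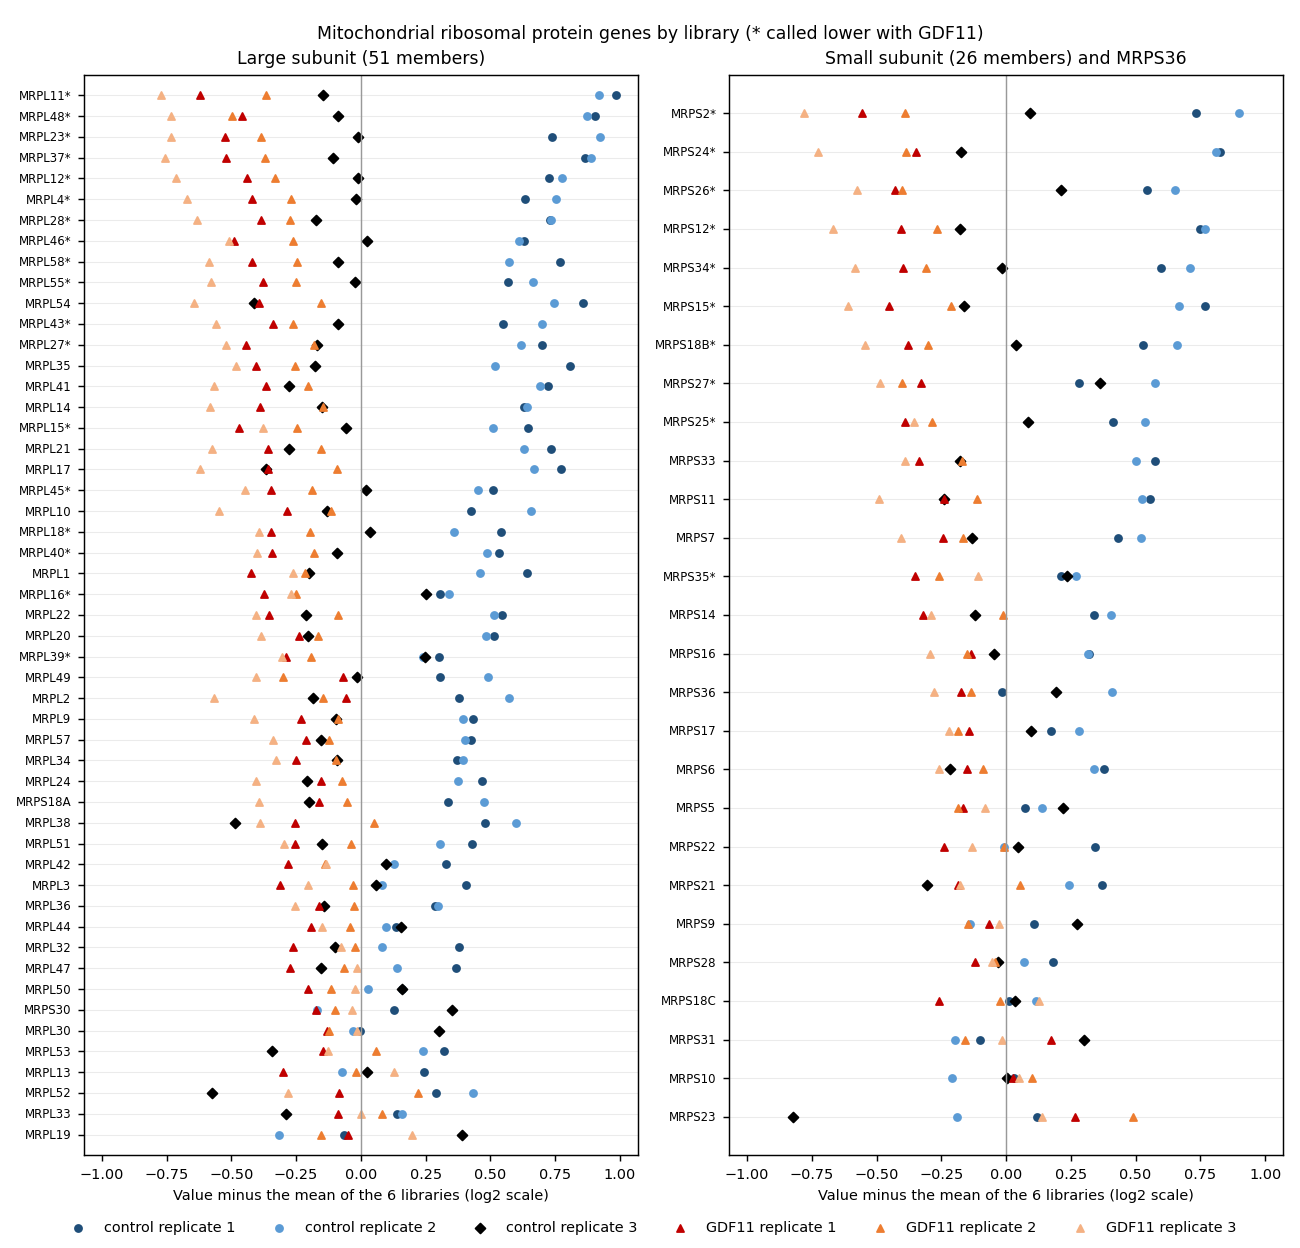
Each row is 1 mitochondrial ribosomal protein gene and each point 1 library, plotted as its log2-scale value minus the mean of the 6 libraries, with members ordered by the difference between the groups and an asterisk on the 28 called lower. In most rows control replicates 1 and 2 (circles) lie to the right, the GDF11 libraries (triangles) to the left and control replicate 3 (diamond) between them, while MRPS23 at the lower right runs the other way.

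The summed level of all members gave the same picture. Back-transformed to reads on the common depth of the table, the 78 genes together had 337352, 336392 and 224489 reads in the controls, in replicate order, and 193038, 212157 and 179478 with GDF11. In these sums the controls were all above the GDF11 libraries, and control replicate 3 lay much nearer to them than to the other controls. The means were 299411 ± 64886 and 194891 ± 16418 reads (SD, n = 3 each), a ratio of 1.54. The ratio was 1.73 with control replicates 1 and 2 alone, and control replicate 3 had 1.15 times the GDF11 mean. On that depth the totals over all genes still differed, at 55405000, 59440400 and 46103000 in the controls and 47137900, 48508300 and 44621200 with GDF11. As a share of each library's reads the members held 0.609%, 0.566% and 0.487% in the controls and 0.410%, 0.437% and 0.402% with GDF11. By share the groups stood closer than by sums, and control replicate 3 was not much nearer to GDF11 than to the other controls. In summed reads, the ratio of control to GDF11 was 1.60 for the large subunit and 1.43 for the small subunit.

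**Figure D2:**
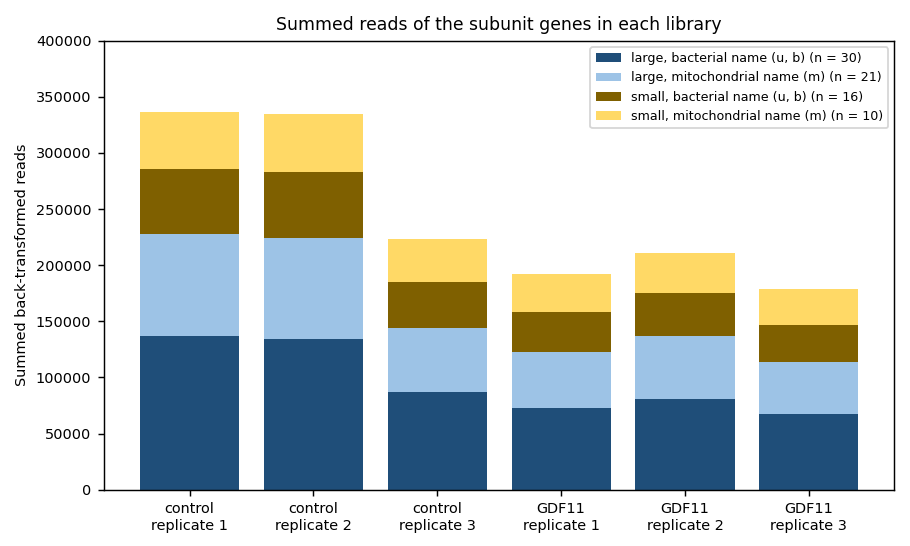
Bars give the summed back-transformed reads of the subunit genes in each library, stacked by subunit and by u or b against m names. The stacks of control replicates 1 and 2 are tallest, and that of control replicate 3 is nearer to the GDF11 libraries than to them in all 4 colours.

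Among the 30 large-subunit genes with bacterial counterparts, 10 fell, 0 rose and 20 were not called, with a median difference of -0.60 and all 30 below 0. Without control replicate 3 the number lower was 24, and without any other library it was 0 to 5. Over all tested genes the share called lower was 10.8% with all libraries and 21.3% without control replicate 3. Without any other library that share was 5.1% to 6.35%. MRPL11 (uL11m, ENSG00000174547.13, chromosome 11, 66435075 to 66438848), a protein of the site where translation factors act, had 12.96, 12.90 and 11.83 in the controls and 11.36, 11.61 and 11.21 with GDF11. All 3 GDF11 values were below the controls, and control replicate 3 was more than 1 unit under the other controls. The difference of MRPL11 was -1.17 ± 0.29 (adjusted p = 0.0202), the largest decrease of any member, and its controls held 2.42 times the reads of the GDF11 cells. Without control replicate 1, control replicate 2, GDF11 replicate 1 or GDF11 replicate 3 MRPL11 stood at -1.16 to -0.97 and was not called, and without control replicate 3 it stood at -1.54.

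MRPL12 (bL12m, ENSG00000262814.8, chromosome 17, 81703367 to 81707517) forms the flexible stalk that recruits those factors. Its values were 13.63, 13.68 and 12.89 in the controls and 12.46, 12.57 and 12.19 with GDF11. The groups did not overlap, and MRPL12 fell by 0.99 ± 0.23 (adjusted p = 0.0154), a ratio of 2.05 in reads. It was not called without control replicate 1 (-0.88), control replicate 2 (-0.85) or GDF11 replicate 3 (-0.88), and stood at -1.25 without control replicate 3. MRPL23 (uL23m), which sits beside the exit of the peptide tunnel, had 12.45, 12.64 and 11.70 in the controls and 11.19, 11.33 and 10.98 with GDF11, again without overlap. It fell by 1.10 ± 0.24 (adjusted p = 0.0123), a call lost without control replicate 1 (-1.004) or GDF11 replicate 3 (-1.01). An antisense gene, MRPL23-AS1, was not called (0.03 ± 0.22, adjusted p = 0.927). The counting is not stated to use strand, so reads of this pair may not be told apart.

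In MRPL16 (uL16m), a protein near the tRNA binding sites, control replicate 3 lay close to the other controls. MRPL16 had 10.80, 10.83 and 10.74 in the controls and 10.12, 10.24 and 10.22 with GDF11. The 3 controls lay close together and well above the GDF11 libraries. MRPL16 fell by 0.60 ± 0.13 (adjusted p = 0.0135), and stood at -0.62 without control replicate 3. It was not called without GDF11 replicate 1 (-0.56), GDF11 replicate 2 (-0.62) or GDF11 replicate 3 (-0.61). The other called members with u or b names in the large subunit were MRPL4, MRPL15, MRPL18, MRPL27, MRPL28 and MRPL55. Their differences lay between -0.91 and -0.62. At the other end, MRPL33 (-0.01 ± 0.17, adjusted p = 0.982) and MRPL19 (-0.01 ± 0.20, adjusted p = 0.986) did not differ beyond the spread. MRPL19 had 11.22, 10.97 and 11.67 in the controls and 11.23, 11.13 and 11.48 with GDF11, and control replicate 3 was its highest library.

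Of the 21 large-subunit genes with m names, 8 fell, 0 rose and 13 were not called, with a median of -0.52. The number lower was 16 without control replicate 3 and 0 to 3 without any other library. Shares of all tested genes are again 10.8% with all libraries, 21.3% and 5.1% to 6.35%. MRPL48 (mL48, ENSG00000175581.14, chromosome 11, 73787874 to 73865133), a protein of the central protuberance, had 11.11, 11.07 and 10.12 in the controls and 9.75, 9.71 and 9.47 with GDF11. The groups did not overlap, and control replicate 3 was nearer to the GDF11 libraries than to the other controls. MRPL48 fell by 1.13 ± 0.26 (adjusted p = 0.0155), a ratio of 2.44 in reads, and its call was lost without control replicate 1 (-0.96), control replicate 2 (-0.97) or GDF11 replicate 3 (-1.04). MRPL46 (mL46), another protein of the protuberance, fell by 0.84 ± 0.19 (adjusted p = 0.0151), from 11.58, 11.57 and 10.98 to 10.47, 10.69 and 10.44. Its call was lost without control replicate 1, control replicate 2, GDF11 replicate 1 or GDF11 replicate 3, at -0.81 to -0.74.

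MRPL37 (mL37) had 13.98, 14.00 and 13.01 in the controls and 12.59, 12.74 and 12.36 with GDF11. It fell by 1.10 ± 0.27 (adjusted p = 0.0192) and was not called without control replicate 1, control replicate 2, GDF11 replicate 1 or GDF11 replicate 3, at -1.11 to -0.93. MRPS30 (mL65) is a relative of MRPL37 in the same subunit and did not follow it. Its values were 10.77, 10.47 and 10.99 in the controls and 10.47, 10.54 and 10.61 with GDF11, which overlap, and control replicate 3 was the highest. The difference of MRPS30 was -0.21 ± 0.17 (adjusted p = 0.398), and whether this pair differed in response was not tested. MRPL45 (mL45), which lies at the tunnel exit and helps to dock the ribosome on the inner membrane, had 13.14, 13.08 and 12.65 in the controls and 12.28, 12.44 and 12.18 with GDF11. MRPL45 fell by 0.65 ± 0.18 (adjusted p = 0.0282). MRPL58 (mL62), a peptidyl-tRNA hydrolase known as ICT1 that frees stalled ribosomes, had 11.46, 11.26 and 10.60 in the controls and 10.27, 10.44 and 10.10 with GDF11. It fell by 0.84 ± 0.23 (adjusted p = 0.0299). The groups of MRPL45 and MRPL58 did not overlap, but without any library other than control replicate 3 neither was called, at -0.72 to -0.56 for MRPL45 and -0.92 to -0.66 for MRPL58. The remaining called members with m names were MRPL39, MRPL40 and MRPL43, at -0.77 to -0.52.

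In the small subunit, 4 of the 16 genes with bacterial counterparts fell, 0 rose and 12 were not called, with a median of -0.38. The number lower was 11 without control replicate 3 and 1 without any other library. Shares of all tested genes are again 10.8% with all libraries, 21.3% and 5.1% to 6.35%, and 1 of 16 is near the last of these. MRPS2 (uS2m, ENSG00000122140.11, chromosome 9, 135499965 to 135504673) had 12.54, 12.70 and 11.90 in the controls and 11.24, 11.41 and 11.02 with GDF11. The lowest control stood clear of the highest GDF11 value. MRPS2 fell by 1.15 ± 0.22 (adjusted p = 0.00700), a ratio of 2.32 in reads, and this call held in all 6 fits that each left out 1 library. MRPS12 (uS12m, ENSG00000128626.11, chromosome 19, 38930944 to 38933168), the protein of the decoding centre, had 12.25, 12.27 and 11.33 in the controls and 11.10, 11.24 and 10.84 with GDF11. Control replicate 3 lay just above the GDF11 libraries. MRPS12 fell by 0.89 ± 0.26 (adjusted p = 0.0378), and was not called without any library other than control replicate 3, at -0.98 to -0.73. MRPS15 and MRPS24 were the other called members of this class, at -0.85 and -0.97.

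SARS2, the mitochondrial seryl-tRNA synthetase gene, starts 181 bases from MRPS12 on the opposite strand, across the stretch printed above. It had 11.27, 11.59 and 10.43 in the controls and 10.19, 10.19 and 9.95 with GDF11, with the groups in the same order and control replicate 3 as low among the controls as in MRPS12. SARS2 fell by 0.99 ± 0.27 (adjusted p = 0.0308), and without any library other than control replicate 3 it was not called, at -1.03 to -0.74.

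Of the 10 small-subunit genes with m names, 6 fell, 0 rose and 4 were not called, with a median of -0.64. The number lower was 7 without control replicate 3 and 2 to 4 without any other library. Shares of all tested genes are again 10.8% with all libraries, 21.3% and 5.1% to 6.35%. MRPS26 (mS26, ENSG00000125901.6, chromosome 20, 3046052 to 3048250), whose upstream stretch is shown above, had 12.65, 12.76 and 12.32 in the controls and 11.68, 11.70 and 11.53 with GDF11. All controls lay well above the GDF11 libraries. MRPS26 fell by 0.94 ± 0.16 (adjusted p = 0.00404), a ratio of 1.96 in reads. MRPS27 (mS27, ENSG00000113048.16, chromosome 5, 72219403 to 72320240), a pentatricopeptide repeat protein that binds RNA, had 12.68, 12.97 and 12.76 in the controls and 12.07, 12.00 and 11.91 with GDF11. Control replicate 3 was between the other controls, not below them. MRPS27 fell by 0.81 ± 0.15 (adjusted p = 0.00507), a ratio of 1.78. Calls of MRPS26 and MRPS27 held in all 6 fits that each left out 1 library, and with MRPS2 they were the only members of which this was true.

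MRPS34 (mS34), a gene mutated in Leigh syndrome, had 13.18, 13.29 and 12.57 in the controls and 12.18, 12.27 and 12.00 with GDF11. It fell by 0.86 ± 0.21 (adjusted p = 0.0184) and was not called without control replicate 1, control replicate 2, GDF11 replicate 1 or GDF11 replicate 3, at -0.88 to -0.72. MRPS25 (mS25) had 11.70, 11.82 and 11.37 in the controls and 10.89, 11.00 and 10.93 with GDF11. The groups of both genes were apart. MRPS25 fell by 0.69 ± 0.16 (adjusted p = 0.0154) and was not called without control replicate 1, GDF11 replicate 1, GDF11 replicate 2 or GDF11 replicate 3, at -0.72 to -0.66. MRPS35 was also called, at -0.48. MRPS22 (mS22), a gene mutated in inherited defects of mitochondrial translation, was not called. Its values were 11.09, 10.74 and 10.79 in the controls and 10.50, 10.73 and 10.61 with GDF11, and its difference was -0.25 ± 0.16 (adjusted p = 0.269).

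The bacterial protein S18 has 3 human relatives, which occupy different places in the mitoribosome. MRPS18B (mS40, small subunit) had 12.72, 12.85 and 12.23 in the controls and 11.81, 11.89 and 11.65 with GDF11 and fell by 0.82 ± 0.19 (adjusted p = 0.0152). It was not called without control replicate 1, control replicate 2, GDF11 replicate 1 or GDF11 replicate 3, at -0.83 to -0.69. MRPS18A (mL66, large subunit) had 11.71, 11.85 and 11.17 in the controls and 11.21, 11.32 and 10.98 with GDF11. These groups overlap because of control replicate 3, and the difference of -0.41 ± 0.20 was not called (adjusted p = 0.175) but was called without that library (-0.61, adjusted p = 0.00830). MRPS18C (bS18m, small subunit), which has the bacterial name, had 10.17, 10.28 and 10.20 in the controls and 9.90, 10.14 and 10.29 with GDF11. Its groups overlap, and its difference was -0.10 ± 0.15 (adjusted p = 0.655). Whether the 3 responses differ from each other was not tested.

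MRPS23 (mS23, ENSG00000181610.13, chromosome 17, 57834781 to 57850044) ran against the others. It had 13.15, 12.84 and 12.20 in the controls and 13.29, 13.51 and 13.16 with GDF11. All 3 GDF11 values were above all controls, the lowest of them only just, and control replicate 3 was far below the rest. The difference of 0.60 ± 0.24 was not called (adjusted p = 0.105), and without control replicate 3 it was 0.33 (adjusted p = 0.108). Among the alternatives without a replicate block, it was called with quantile normalization (0.77, adjusted p = 0.0249, background higher 11.3%) and when RNA integrity entered the fit (1.11, adjusted p = 0.0493). MRPS10 (uS10m) was the other member with a difference above 0, at 0.12 ± 0.14 (adjusted p = 0.575), and MRPS31 (mS31) stood at -0.00 ± 0.18 (adjusted p = 0.990). MRPS31 had 9.24, 9.15 and 9.65 in the controls and 9.52, 9.18 and 9.33 with GDF11, which overlap. Pseudogenes of MRPS31 are in the table, and reads may be divided between such copies. MRPS36, in neither subunit, was not called, at -0.39 ± 0.16 (adjusted p = 0.107).

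Control replicate 3, an untreated library, had low values for a control in most members. It was below both other controls in 62 of 78 members (background 39.2%), above both in 8 (background 39.6%) and between them in 8. Its value minus the mean of control replicates 1 and 2 had a median of -0.60 over the members, against 0.01 over all tested genes, and ran from -1.21 to 0.58. It was lower by at least 0.5 in 45 members (background 13.5%). Measured from control replicates 1 and 2, GDF11 lay at a median of -0.74. Measured from control replicate 3, it lay at -0.23. Control replicate 3 was above all 3 GDF11 values in 48 members (background 34.9%), within them in 23 (30.7%) and below them all in 7 (34.3%). These comparisons use 1 library against 2 of its own group and have no test.

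Of the 50 members not called, 30 were called lower without control replicate 3 and 20 were not called either way. MRPL54 (mL54) had the largest shift and was picked for it after its values were seen. Its values were 11.25, 11.14 and 9.98 in the controls and 10.00, 10.24 and 9.75 with GDF11. Control replicate 3 fell inside the range of the GDF11 libraries. The difference of MRPL54 was -0.79 ± 0.32 (adjusted p = 0.103), and -1.20 without control replicate 3 (adjusted p = 0.000708).

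Among the members, base composition moved with the shift of control replicate 3 and with the GDF11 difference. Both subtract control replicates 1 and 2, so a trend in those 2 libraries enters both. Across the 78 genes the GC content of the canonical transcript ran from 34.8% to 66.7%. Its Pearson correlation with the shift of control replicate 3 was -0.61 (Spearman -0.62), with the GDF11 difference -0.59 (-0.62) and with the difference between GDF11 and control replicate 3 -0.12 (-0.11). These are descriptions across genes of the same libraries, which are not independent replicates. Over all tested protein-coding genes the first value was -0.48, the second -0.12 and the third 0.12. In the 26 members of lowest GC content 2 were called lower, in the middle 26 there were 12 and in the highest 26 there were 14, with median differences of -0.25, -0.61 and -0.78. Without control replicate 3 the same 3 classes had 9, 25 and 24 called lower. Among the shortest, middle and longest 26 transcripts 12, 11 and 5 were called lower, and without control replicate 3 these counts were 22, 18 and 18, so that the middle and longest were level. The share called lower over all tested genes was 10.8% with all libraries and 21.3% without that library. After removal of each library's trend on GC content and length over all genes, 34 members were called lower (background 15.5%), all of the 28 among them, and 62 when control replicate 3 was left out too (background 23.5%).

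**Figure D3:**
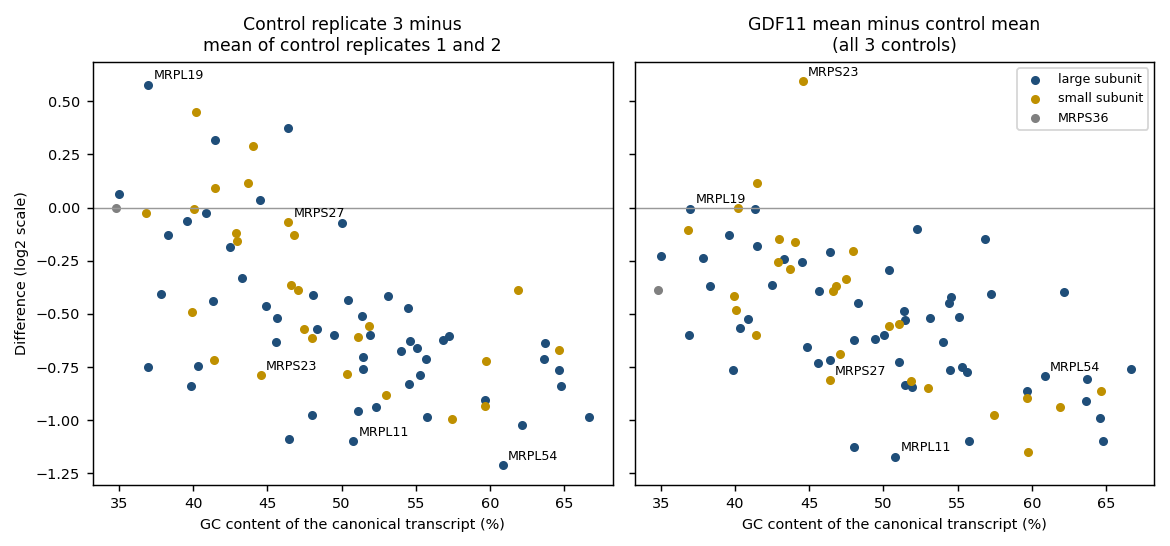
Points are the 78 members by the GC content of the canonical transcript, with the shift of control replicate 3 from the other controls on the left and the difference between GDF11 and all controls on the right, both on the log2 scale. In both panels members of high GC content tend to lie lower, and MRPS27 and MRPL19 are near 0 or above it on the left, while MRPS23 is the highest point on the right.

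RNA integrity moved with the groups as well, since the GDF11 libraries had 9.4 to 9.6 and the controls 9.6 to 9.9. With this number as a covariate in limma, 0 members were called lower and 1 (MRPS23) higher, beside 3.85% and 6.14% of all tested genes. At an unadjusted p under 0.05, 10 members were lower and 2 higher, and the share of all genes at that threshold was not counted. The members' median difference was then -0.20. Of the 28 called members the differences in that fit lay between -0.64 and -0.16 at adjusted p of 0.0586 to 0.761. MRPS27 (-0.64, adjusted p = 0.0586) and MRPS26 (-0.60, adjusted p = 0.0624) came nearest to the threshold, and MRPS2 stood at -0.55 (adjusted p = 0.164). The integrity numbers of the groups overlap only at 9.6, and the parts of RNA integrity and treatment cannot be told apart.

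Genes that build, supply or regulate the mitoribosome were counted in the same fit. It called 13.2% of the 13803 tested protein-coding genes lower and 12.8% higher, and no test set the counts of these lists apart from those shares. Without control replicate 3, calls rose in general, to 3570 of the 13803 lower and 3033 higher. The counts without that library given below stand beside these, also untested. The other proteins of the particle were not called: DAP3 (-0.24 ± 0.15), a GTP-binding protein of the small subunit, PTCD3 (-0.10 ± 0.16), CHCHD1 (-0.18 ± 0.14) and AURKAIP1 (-0.56 ± 0.25), and in the large subunit GADD45GIP1 (-0.71 ± 0.28), at adjusted p of 0.103 to 0.678. Without control replicate 3, AURKAIP1 and GADD45GIP1 were called lower at -0.85 and -1.06. Of the 27 genes for assembly of the particle and modification of its RNA, 7 fell, 0 rose and 20 were not called, with a median of -0.37. C1QBP, an RNA-binding matrix protein, fell by 0.98 ± 0.16 (adjusted p = 0.00339). The ribosomal RNA methyltransferase genes MRM3 and MRM1 fell by 0.80 ± 0.15 (adjusted p = 0.00691) and 0.72 ± 0.15 (adjusted p = 0.00949). METTL17, a factor of small-subunit assembly, fell by 0.68 ± 0.15 (adjusted p = 0.0118), a call lost without GDF11 replicate 1 (-0.68) or GDF11 replicate 3 (-0.63). The number lower in this list was 16 without control replicate 3, 3 or 4 without any other library and 1 when RNA integrity entered the fit.

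Of the 13 mitochondrial translation factors, 3 fell, 1 rose and 9 were not called, with a median of -0.28, beside 13.2% lower and 12.8% higher among protein-coding genes. TUFM and TSFM, the elongation factors that deliver charged tRNA and recharge the carrier with GTP, fell by 0.69 ± 0.21 (adjusted p = 0.0474) and 0.58 ± 0.15 (adjusted p = 0.0219), and TACO1, needed to translate a cytochrome oxidase subunit, fell by 0.82 ± 0.20 (adjusted p = 0.0175). MTRF1L, a peptide chain release factor, rose by 0.55 ± 0.15 (adjusted p = 0.0334). Without control replicate 3 the list had 5 lower and 1 higher, and without any other library 0 or 1 lower and 0 or 1 higher. When RNA integrity entered the fit none of the 13 was called, and the calls of TUFM (adjusted p = 0.0592) and MTRF1L (adjusted p = 0.0576) also ended without the filter on low values. Of the 20 genes that charge mitochondrial tRNAs, 4 fell, 0 rose and 16 were not called, with a median of -0.33, beside the same shares. Besides SARS2 these were LARS2 (-0.86 ± 0.20), CARS2 (-0.65 ± 0.15) and EARS2 (-0.57 ± 0.15), at adjusted p of 0.0142 to 0.0308. The number lower was 9 without control replicate 3, 0 to 2 without any other library and 0 with integrity as covariate.

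**Figure D4:**
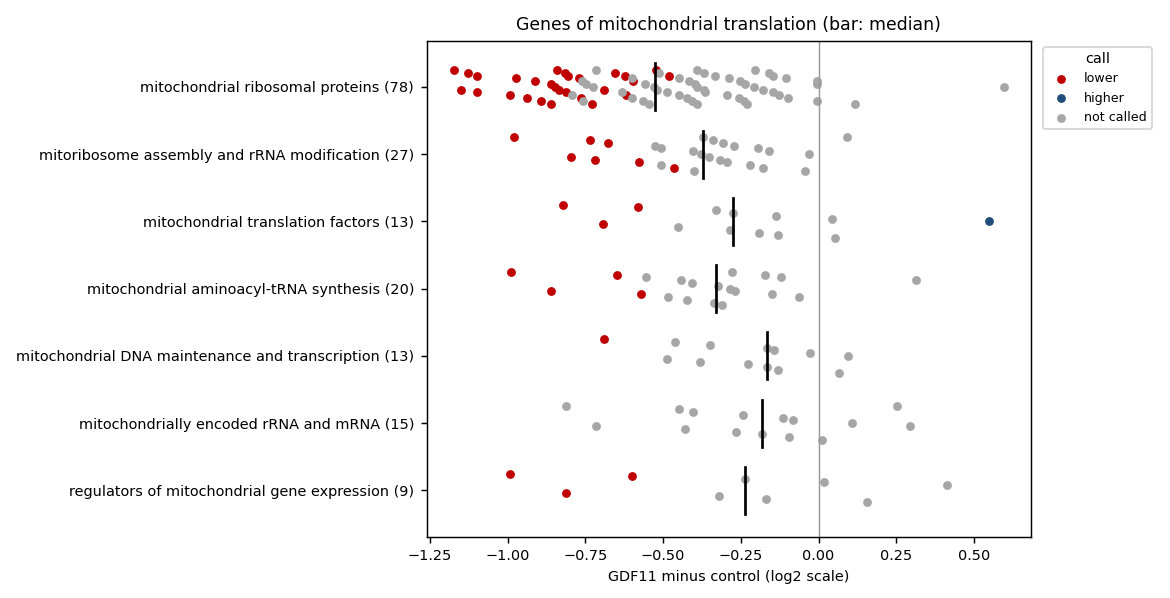
Each point is 1 gene at its difference between GDF11 and control on the log2 scale, in the mitochondrial ribosomal proteins and 6 other lists, with red for called lower, blue for called higher, grey for not called and a black bar at the list's median. The ribosomal proteins have the lowest median in this fit, -0.53, and MTRF1L is the 1 gene called higher. With RNA integrity in the fit the ribosomal proteins' median was -0.20 and no longer the lowest. The mitochondrially encoded list then had 0.58 and the other lists shown had -0.35 to -0.25.

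Transcripts made from mitochondrial DNA showed no call: of 15 tested, 0 fell and 0 rose by limma, with 0 at an unadjusted p under 0.05 in the higher direction and 2 in the lower, and a median of -0.18. The sign of this median turned in 3 alternatives. It was 0.58 when RNA integrity entered the fit, with 8 higher at an unadjusted p under 0.05, 0.16 with quantile normalization and 0.035 without control replicate 2. Control replicate 3 was below both other controls in 15 of 15 of them, by a median of -0.85. MT-RNR1 and MT-RNR2, the ribosomal RNAs of the small and large subunit, stood at -0.72 ± 0.30 (adjusted p = 0.121) and -0.45 ± 0.29 (adjusted p = 0.289). Without control replicate 3 they were called lower at -1.05 and -0.73, among 6 of the 15, and with quantile normalization 2 of the 15 were called higher. Of 13 genes that copy, transcribe or maintain mitochondrial DNA and its RNA, 1 fell: LRPPRC, which stabilises mitochondrial messenger RNA, by 0.69 ± 0.15 (adjusted p = 0.0120). Its call was lost without GDF11 replicate 1 (-0.69), GDF11 replicate 2 (-0.71) or GDF11 replicate 3 (-0.67). Without control replicate 3, 3 of the 13 genes were called lower, beside 3570 of the 13803 tested protein-coding genes. POLRMT, the mitochondrial RNA polymerase, was not called (-0.49 ± 0.21, adjusted p = 0.125). It was called lower without control replicate 3 (-0.67), with library weights (-0.51), with a replicate block (-0.49) and with GC and length trends taken out (-0.44). When RNA integrity entered the fit, POLRMT turned to 0.10 and was not called (adjusted p = 0.780).

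Of 9 regulators of mitochondrial gene expression, 3 fell and 0 rose. MYC, a driver of ribosome production, had 12.30, 12.67 and 13.08 in the controls and 11.76, 11.91 and 11.95 with GDF11, and fell by 0.81 ± 0.20 (adjusted p = 0.0213). Its highest value was in control replicate 3, as was that of PPARGC1A (below). Whether either gene bears on the values of the members was not tested. PPARGC1A, the coactivator PGC-1alpha, had 9.43, 9.40 and 10.20 in the controls and 8.45, 8.34 and 9.26 with GDF11, and fell by 0.99 ± 0.29 (adjusted p = 0.0408). ESRRA, a nuclear receptor that works with it, fell by 0.60 ± 0.16 (adjusted p = 0.0267). Without control replicate 3 the list had 2 lower and 1 higher, and without any other library 0 or 1 lower and 0 higher. MYC was not called without control replicate 2 (-0.82) or without GDF11 replicate 1, 2 or 3 (-0.85 to -0.76), PPARGC1A was called only without GDF11 replicate 3, and ESRRA only without control replicate 3 (-0.71). The call of MYC also ended with quantile normalization (-0.70, adjusted p = 0.0622), and that of ESRRA with the RNA integrity covariate (-0.27, adjusted p = 0.371).

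Levels can be compared between genes only per length. On back-transformed reads per kilobase of the canonical transcript, MRPL12 had the highest control mean of the members, 10911, and 5319 with GDF11, followed by MRPL41 with 9504 and 5321 and MRPL37 with 9096 and 4043. MRPL42 had the lowest, 147 and 112, on a canonical transcript of 15557 bases. Members with more reads in the controls tended to have lower differences. The Pearson correlation across the 78 genes between the control mean on the log2 scale and the difference was -0.45. It was -0.28 over all tested protein-coding genes. The control mean is also subtracted in the difference, and the scale compresses changes at low values. Both bear on these correlations, and their part was not tested.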

How the data were processed

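Total RNA of 6 HepG2 libraries was measured, and the authors deposited 1 table of variance-stabilised log2 values for 60240 Ensembl genes. The tools named per the submitters' processing notes are DESeq2, Salmon 1.2.1 and Trimmomatic, with the build GRCh38. The alignment described per the labels' protocols is to hg19 with STAR 2.6. The route that led to the values was not given in the sources used here. Of the low values 71.2% to 74.2% per library were whole reads within 0.01, so no count test was run. A log2 change appears on this scale as 0.696 of its size at 8, 0.914 at 10 and 0.978 at 12. The fit took the 18723 genes whose mean exceeded the table's minimum by 0.5 or more, in limma 3.58.1 under R 4.3.3 (mean trend, two-sided, no covariate, Benjamini-Hochberg over all tested genes, called under 0.05). The fit was tested on simulated data. Back-transformed reads invert the stabilising curve and stand on the authors' common depth. Gene names, standard protein names and positions came from RefSeq tables (GRCh38.p14), and transcript length and GC content from a GRCh37 annotation. Alternatives covered filters, the adjusted p, normalization, the variance prior, library weights, RNA integrity, a replicate block, a log2 scale of reads plus 1, a fit of GC content and length taken out of each library, and leaving out each library. Taking out GC content and length with control replicate 3 left out as well was chosen after seeing the data. Members and lists were chosen with earlier results of these data known. Members described singly are the 10 called with the lowest p, the 5 highest and 5 lowest differences and 11 taken whatever their result, with up to 4 genes of lowest p per list. Others, such as MRPL54, MRPL41 and MRPL42, were chosen after their values were seen.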

Additional observations from a re-analysis of the deposited data

How the results depend on the processing

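All 78 members were tested in each alternative. Of the members 3 were called lower at an adjusted p under 0.01, 65 with library weights, 0 when RNA integrity entered the fit and 62 when GC and length trends were taken out and control replicate 3 was left out. Leaving out each library gave 3 to 58. Other filters, normalizations and variance priors gave 25 to 34. Quantile normalization and RNA integrity each called 1 member higher, and integrity moved the members' median to -0.20. Same-numbered control and GDF11 libraries deviated from their group means with correlations of -0.09, 0.38 and 0.48, and control replicate 1 went best with GDF11 replicate 2 (0.25), so the numbers were not taken as pairs. With a replicate block 49 members were called lower and 1 (MRPS23) higher, and 3306 of all tested genes lower. Over all tested genes the counts higher and lower were 1170 and 791 at 0.01, 4473 and 4554 with library weights, 1149 and 721 with RNA integrity and 3815 and 4333 with trends and control replicate 3 taken out. Leaving out each library gave 1397 to 3647 higher and 955 to 3993 lower. Some differences that were not called changed sign. With RNA integrity these were AURKAIP1 (0.12), GADD45GIP1 (0.0707), MRPL33 (0.25), MRPS10 (-0.000717), MRPS18A (0.12), MT-CO3 (0.44), MT-ND3 (0.16), MT-RNR2 (0.20) and POLRMT (0.10). With quantile normalization they were MRPL19 (0.0280), MRPL33 (0.0496) and PTCD3 (0.0190), and with library weights MRPL19 (0.0367), MRPS31 (0.14) and PTCD3 (0.0280). Taking out GC and length trends gave MRPL33 (0.0766) and MRPS31 (0.0783), and MRPS31 0.23 without control replicate 3 too. Leaving out each library gave -0.17 to 0.19 for MRPL19, -0.15 to 0.0706 for MRPL33, -0.10 to 0.15 for MRPS31 and -0.20 to 0.0226 for PTCD3. The cause of these changes was not tested. Changes are limited in precision by 3 libraries a group, and in size by the compression of the scale at low values.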
